A study of Homo sapiens with 3 samples.

Results

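The 10 genes examined here (CDX2, GATA2, GATA3, TFAP2A, TP63, KRT7, ELF5, CGA, ISL1 and GABRP) are markers of trophectoderm and amnion, and were taken by symbol from the 58051 genes in the deposited counts; all 10 were found. Total RNA of untreated wild-type H9 cells, an established human embryonic stem cell line, was sequenced from 3 replicates after depletion of ribosomal RNA, and cells had been grown on Vitronectin-XF in Essential 8 Flex medium. There is 1 line and 1 condition, and whether the replicates were separate cultures is not stated, so that the spread between them may be technical. No group was compared with another, and no trophoblast or amnion sample was analysed here.

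Trophectoderm is the outer layer of the blastocyst, from which the trophoblast of the placenta arises, and amnion is the epithelium that encloses the embryo. Transcription factors of the GATA, AP-2 and CDX families act early in trophectoderm, keratins mark its epithelium, and chorionic gonadotropin is secreted by mature trophoblast. Human pluripotent cells treated with BMP4 switch on many of these genes, and whether they then resemble trophoblast or amnion has been debated, since most of the genes are active in both.

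Markers of the labelled cell type were examined first. All 10 pluripotency genes were in the high class of expression, with means from 259 (SALL4) and 275 (NANOG) to 1200 (DNMT3B), 1215 (L1TD1) and 2576 (LIN28A) TPM (reads scaled by exon length and by library), and POU5F1 had 799 TPM. Libraries held 8655155 to 12024802 counted reads. Replicate 3 had the fewest reads and stood farthest from the others: 1.33% of genes with at least 20 reads spread beyond counting error without it, against 9.26% without replicate 1 and 10.7% without replicate 2. The mean and spread of GABRP, the level of ELF5 and the main counts of markers are therefore also given without it.

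Promoter sequences are shown for the markers at the ends of the range of expression, GABRP with the most reads and ISL1 and CDX2 with none, and for CGA, whose promoter has a well-known pair of elements. They are the 250 bases before the RefSeq start on GRCh38.p14, written 5′ to 3′ on the strand of the gene. For GABRP, the RefSeq start lies 20375 bases inside the gene as annotated by GENCODE, which has alternative first exons upstream. GABRP encodes the pi subunit of the GABA-A receptor, a chloride channel, and ISL1 a LIM homeodomain factor. Capitals mark CG dinucleotides in GABRP (chr5:170783475-170783724, plus strand) and in ISL1 (chr5:51383198-51383447, plus strand), of which GABRP had 3 and ISL1 27.
GABRP: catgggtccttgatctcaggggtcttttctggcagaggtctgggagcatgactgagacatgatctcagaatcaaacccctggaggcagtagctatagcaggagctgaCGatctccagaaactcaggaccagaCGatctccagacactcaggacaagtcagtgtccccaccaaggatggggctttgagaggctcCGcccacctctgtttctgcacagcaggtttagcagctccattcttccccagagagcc
ISL1: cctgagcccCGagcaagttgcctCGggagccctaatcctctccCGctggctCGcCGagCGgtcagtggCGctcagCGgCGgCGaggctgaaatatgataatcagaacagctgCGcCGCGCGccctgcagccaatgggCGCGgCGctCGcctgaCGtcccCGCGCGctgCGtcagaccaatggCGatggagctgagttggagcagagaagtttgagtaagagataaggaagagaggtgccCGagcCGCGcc

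CDX2 encodes a caudal-type homeodomain factor, and CGA the alpha subunit shared by chorionic gonadotropin and pituitary hormones. Capitals mark the octamer ATGCAAAT, the sequence that POU factors such as POU5F1 bind, in CDX2 (chr13:27969316-27969565, minus strand), where it begins 107 bases before the start. They mark the cAMP response element TGACGTCA in CGA (chr6:87095107-87095356, minus strand), where 2 copies begin 142 and 124 bases before the start.
CDX2: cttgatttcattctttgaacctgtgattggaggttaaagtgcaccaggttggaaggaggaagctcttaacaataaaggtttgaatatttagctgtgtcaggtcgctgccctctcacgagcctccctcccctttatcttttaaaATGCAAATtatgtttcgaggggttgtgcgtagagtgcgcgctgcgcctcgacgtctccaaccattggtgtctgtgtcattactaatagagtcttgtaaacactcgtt
CGA: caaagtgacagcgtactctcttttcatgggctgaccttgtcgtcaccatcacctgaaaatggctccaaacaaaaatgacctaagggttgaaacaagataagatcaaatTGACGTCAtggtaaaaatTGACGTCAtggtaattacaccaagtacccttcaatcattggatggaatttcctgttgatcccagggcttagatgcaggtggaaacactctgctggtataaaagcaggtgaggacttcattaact

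Motifs were searched on both strands of these windows in 9 markers with a RefSeq promoter (all but KRT7), which have 16 windows between them. The octamer was in 1.63% and the cAMP response element in 1.65% of all 35114 windows, and among the markers each was in 1 gene. The GATA motif AGATAA, in 9.17% of windows, was in CDX2, ISL1 and CGA, and the AP-2 motif GCCNNNGGC, in 19.8%, was in GATA2 and GATA3. These shares are of windows, whereas markers are given by gene, so that they cannot be compared directly. GATA2 has 2 windows and GATA3 has 6, with more room for a match than 1 window gives. The median window had 11 CG dinucleotides, and GABRP, with 3, ranked at percentile 26.1. Of the markers without a read, ISL1 ranked at 83.2 and CDX2 at 48.8, and ELF5 and CGA, with 3 reads and 1 read in all, ranked at 18.8 and 31.8. TP63 ranked at 39.6, TFAP2A at 54.3 and 58.1, and GATA2 at 77.35 and 64.29. The 6 windows of GATA3 ranked between 31.8 and 88.4. Whether CG content goes with the level of the markers was not tested. Such matches describe the sequence, and binding at these sites was not measured in these files.

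Reads on the markers lay mostly on a single gene. GABRP had 653, 778 and 673 reads in replicates 1, 2 and 3, out of 753, 914 and 786 reads on all 10 genes. Of the summed TPM of the markers, GABRP had between 84.0% and 85.6% in each replicate. Mean expression reached 1 TPM in 4 of 10 markers (GABRP, KRT7, GATA3 and GATA2), beside 67.4% of 19629 protein-coding genes. More than 3 reads, the number that a count of 0 allows, were counted in every replicate on 6 of 10 markers, beside 71.9% of protein-coding genes. No read was counted on 2 of 10, CDX2 and ISL1, beside 13.5%. The median marker had 0.311 TPM, and the median protein-coding gene 7.10 TPM. RNA was taken from whole cultures, so that a few cells of another type and a low level in every cell cannot be told apart.

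**Figure D1:**
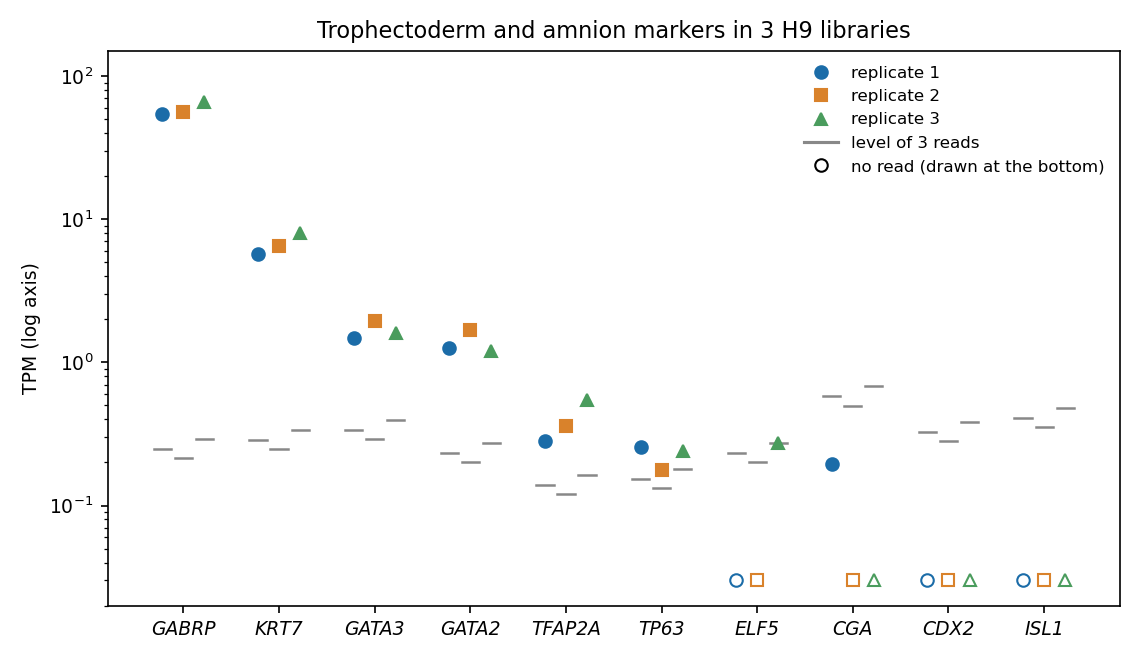
TPM of the 10 markers (log axis) in each of the 3 H9 replicates, with filled points for measured levels, open points at the bottom for replicates without a read, and grey lines at the level that 3 reads would give. GABRP lies between 54.3 and 65.6 TPM, far above KRT7, and CDX2 and ISL1 have no read in any replicate.

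Classes of expression were set as in the methods of the study, with genes below 0.01 TPM called nonexpressed and the others divided into 3 quantiles. Only protein-coding genes entered the classes, a restriction that is not from the study, and the boundaries were at 3.35 and 26.96 TPM. GABRP was in the high class, KRT7 in the medium class, and GATA2, GATA3, TFAP2A, TP63, ELF5 and CGA in the low class, while CDX2 and ISL1 were nonexpressed. The upper 2 classes thus held 2 of 10 markers, beside 57.6% of protein-coding genes. ELF5 and CGA were in the low class on 3 reads and 1 read in all, so that a few reads decide the class there. ELF5 had a mean of 0 TPM without replicate 3, which is below 0.01 TPM. Without that restriction 4 markers were in the upper 2 classes, and with nonexpressed genes set below 1 TPM, 1 was.

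GABRP (ENSG00000094755, chromosome 5, 170763350 to 170814047, plus strand), a marker of amnion, had 54.3, 55.6 and 65.6 TPM in replicates 1, 2 and 3. Its mean of 58.5 ± 6.19 TPM (SD, n = 3) ranked 2935th of 19629 protein-coding genes. The exact 95% Poisson interval of the pooled reads, which covers counting error only, was 55.6 to 60.5 TPM. Replicate 3 was above the others, and the counts spread over libraries more than sampling of reads gives, with a chi-square of 9.07 per degree of freedom. This was called after Benjamini-Hochberg adjustment over 18451 genes with at least 20 reads, of which 10.9% were called. Without replicate 3 the statistic was 0.301 and GABRP was not called. With all replicates GABRP was the only marker called, of the 5 with enough reads. It had 2104 reads, against 208 for KRT7 and fewer for the others, and smaller differences can be called with more reads. The spread of KRT7 was larger, at 17.7% of its mean against 10.6% for GABRP. Counting error would give 12.1% for KRT7 and 3.81% for GABRP. Libraries, not conditions, are compared by this test.

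The higher level in replicate 3 was set beside the base composition of genes, since that library differed from the others with GC content. The log2 ratio of replicate 3 to the mean of replicates 1 and 2 was 0.29 for GABRP, whose longest transcript has 44.4% GC. In the decile of genes with like GC content (995 genes with at least 100 reads in every replicate), the median ratio was -0.04, with quartiles of -0.11 and 0.04. For KRT7, with 62.0% GC, the ratio was 0.43 and the median of its decile 0.24 (quartiles 0.12 and 0.37). TFAP2A, at 0.80, also lay above the quartiles of its decile (-0.11 and 0.06), whereas GATA2, at -0.27 (0.01 and 0.21), and GATA3, at -0.07 (-0.04 and 0.14), lay below theirs. Ratios of markers thus lay outside these quartiles in both directions, as those of many genes do by definition. All but GABRP had fewer than 100 reads in every replicate, so that counting error in their ratios is larger than in those of the deciles. Apart from GABRP, no marker was called for its spread over libraries. Chi-square per degree of freedom was 2.31 for KRT7, 1.02 for TFAP2A, 0.658 for GATA2 and 0.343 for GATA3. The part of GC content in this spread was not tested.

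KRT7 (ENSG00000135480, chromosome 12, 52232520 to 52252186, plus strand) encodes keratin 7, a type II keratin of simple epithelia and of trophoblast. It had 59, 78 and 71 reads, or 5.67, 6.45 and 8.00 TPM, with a mean of 6.70 ± 1.19 TPM (SD, n = 3) and a counting interval of 5.76 to 7.59 TPM. The spread over libraries gave a chi-square of 2.31 per degree of freedom and was not called. The level depends on the length assigned to the gene, and was 12.4 TPM with the longest transcript of 1625 bases in place of 3999 bases of exons. GABRP was between 8.20 and 9.58 times KRT7 in the 3 replicates.

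GATA3 and GATA2, zinc finger factors that are among the first of the trophectoderm, were next. GATA3 (ENSG00000107485, chromosome 10, 8045378 to 8075198) had 13, 20 and 12 reads, or 1.47, 1.95 and 1.59 TPM, with a mean of 1.67 ± 0.247 TPM (SD, n = 3). GATA2 (ENSG00000179348, chromosome 3, 128479427 to 128493201) had 16, 25 and 13 reads, or 1.25, 1.68 and 1.19 TPM, with a mean of 1.37 ± 0.267 TPM (SD, n = 3). The ranges of both genes overlapped. Within each of the 3 libraries GATA3 was above GATA2 in TPM, and below it in CPM, which takes no account of length and had means of 1.43 for GATA3 and 1.71 for GATA2. Their spread, of 14.8% and 19.4% of the mean, was less than the 26.0% and 23.8% that counting error gives at these numbers of reads.

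TFAP2A and TP63 were below 1 TPM but had reads in every replicate. TFAP2A (ENSG00000137203, chromosome 6, 10393186 to 10419659), an AP-2 factor of trophoblast, amnion and surface ectoderm, had 6, 9 and 10 reads, or 0.280, 0.362 and 0.548 TPM, with a mean of 0.397 ± 0.137 TPM (SD, n = 3). With the length of its longest transcript the mean was 0.641 TPM. TP63 (ENSG00000073282, chromosome 3, 189631389 to 189897276), a transcription factor of epithelial progenitors and cytotrophoblast, had 5, 4 and 4 reads and 0.225 ± 0.0424 TPM (SD, n = 3), with a counting interval of 0.118 to 0.379 TPM. TP63 was just above the limit of 3 reads in every library, and TFAP2A was farther from it. TFAP2A was above TP63 in all 3 replicates without overlap, but their counting intervals overlapped.

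ELF5, CGA, CDX2 and ISL1 were at or below the limit of detection. All 3 reads of ELF5 (ENSG00000135374, chromosome 11, 34478791 to 34525193), an ETS factor of trophoblast stem cells, were in replicate 3. The 1 read of CGA (ENSG00000135346, chromosome 6, 87085498 to 87095106) was in replicate 1. No library thus exceeded 3 reads on either gene. For CDX2 (ENSG00000165556, chromosome 13, 27960918 to 27969315), the absence of reads allows up to 0.109 TPM over the pooled libraries, and for ISL1 (ENSG00000016082, chromosome 5, 51383448 to 51394730) up to 0.136 TPM. Against 3 reads in each library, GABRP was at least 166-fold higher than CDX2 and at least 133-fold higher than ISL1 in every replicate. Lower levels were not detectable at this depth, which does not show that the genes are silent.

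In the order of means, GABRP was above KRT7 by 8.73 times, KRT7 above GATA3 by 4.02 times, and GATA2 above TFAP2A by 3.46 times, and these neighbors overlapped neither in the range of replicates nor in counting interval. GATA3 and GATA2 overlapped in both, as did TP63, ELF5, CGA, CDX2 and ISL1 among neighbors. No p is given, since a two-sided exact permutation test of 3 against 3 cannot go below 0.10, nor one paired by library below 0.25. GABRP and ISL1, which both serve as markers of amnion, were at opposite ends of this order.

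The sources used here do not say how reads were counted or whether strand was used, and genes that overlap a marker were therefore examined. ENSG00000253348, a long noncoding RNA (lncRNA) gene on the opposite strand to GABRP (chromosome 5, 170747047 to 170788650), had 593, 688 and 574 reads. At 200 ± 15.1 TPM (SD, n = 3) it was above GABRP, with 1558 against 455 pooled reads per kb of exon. Their exons share 77 bases, which is 1.67% of the exon length of GABRP and 6.47% of that of the lncRNA in release 44. The lncRNA gene also lies over introns of GABRP, and whether reads of unspliced RNA from one were counted on the other was not tested. In CPM, the lncRNA had 57.1, 57.2 and 66.3 in replicates 1, 2 and 3, and GABRP 62.8, 64.7 and 77.8. Both were thus highest in replicate 3, although the spread of the lncRNA was not called.

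**Figure D2:**
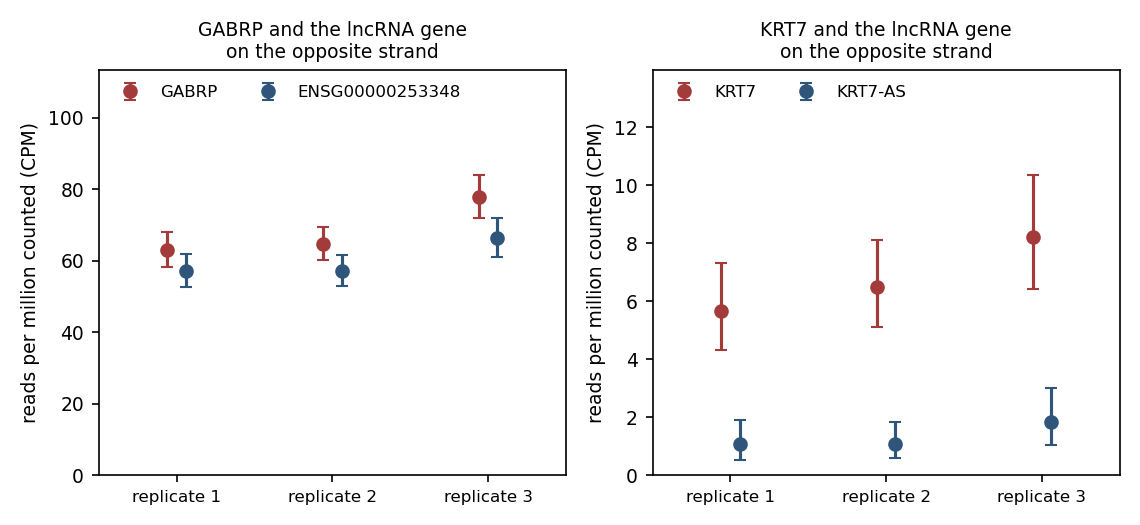
CPM (counts scaled to the library total) in each replicate for GABRP and KRT7 (red) and for the lncRNA gene on the opposite strand of each (blue), with exact 95% Poisson intervals that cover counting error only. ENSG00000253348 is close to GABRP, at 57.1 to 66.3 CPM, and KRT7-AS is below KRT7, at 1.06 to 1.85 CPM.

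Fewer reads lay on genes that overlap the other markers or are opposite their start. KRT7-AS, opposite KRT7, had 11, 13 and 16 reads and shares 282 bases, or 7.05%, of the exons of KRT7. It had 3.10 ± 1.01 TPM (SD, n = 3), with 23.6 pooled reads per kb of exon against 52.0 for KRT7. Whether reads of one were counted on the other was not tested. GATA2-AS1 had 4, 0 and 1 reads, GATA3-AS1 and ISL1-DT, whose exons overlap no exon of the marker, had 1 read each in all, and TFAP2A-AS1 had none. TFAP2A-AS2, which shares 941 bases with the exons of TFAP2A, and an lncRNA gene of KRT87P are not among the counted genes. In the longest transcript of each marker, stretches of at least 75 bases with at least 95% identity to another gene were found only in TFAP2A, KRT7 and GABRP, and each matched the gene on the opposite strand. No such stretch matched a gene elsewhere in the genome.

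Relatives of the markers were compared in the same libraries, and those outside the naming rule were chosen after their values had been seen. Keratins of simple epithelia that pair with keratin 7 or resemble it were far above it, with KRT18 at 327 ± 30.0 TPM, KRT8 at 181 ± 3.15 TPM and KRT19 at 92.8 ± 8.94 TPM (SD, n = 3). KRT8 was 22.6 to 32.6 times KRT7 in the 3 replicates, and KRT8 and KRT18 have many pseudogene copies that could share reads. Among AP-2 factors, TFAP2C, which is active in pluripotent cells as well as in trophoblast, had 52.6 ± 6.05 TPM (SD, n = 3) and was 107 to 165 times TFAP2A, while TFAP2E had 0.651 TPM, TFAP2B 0.134 TPM and TFAP2D no read. In both families the gene with the highest level was thus another than the marker.

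**Figure D3:**
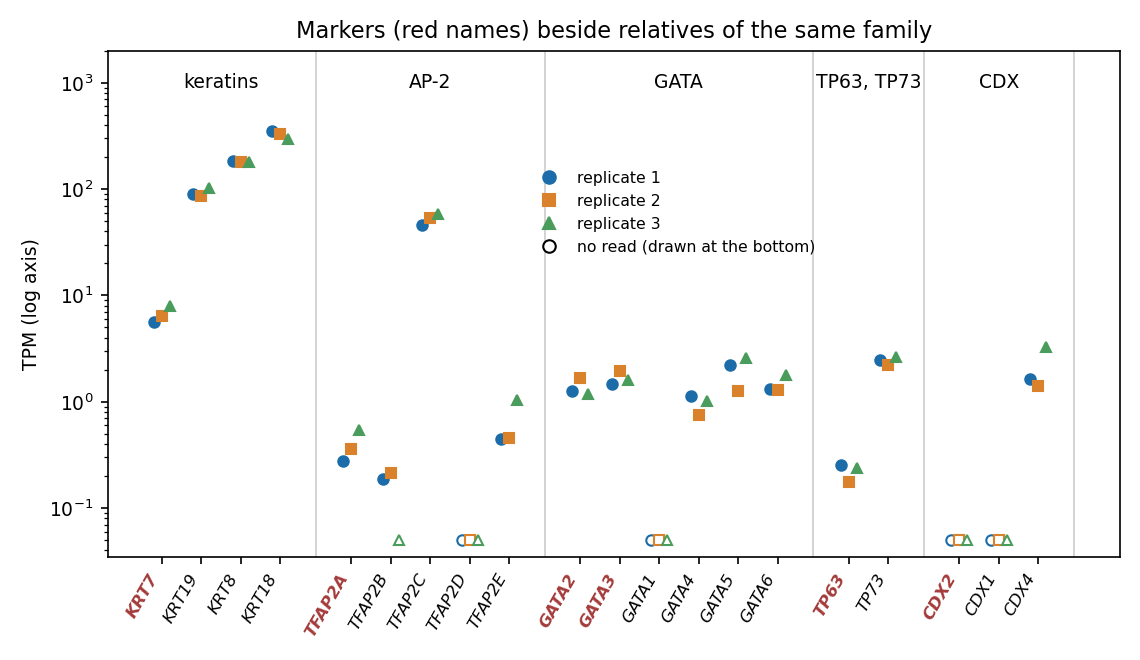
TPM (log axis) in each of the 3 replicates for KRT7, TFAP2A, GATA2, GATA3, TP63 and CDX2 (red names) beside relatives of the same family, with open points at the bottom for replicates without a read. KRT8, KRT18, KRT19 and TFAP2C lie far above the marker of their family, and the GATA genes with reads lie close together.

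GATA factors showed no such difference. GATA6, GATA5 and GATA4, which act in endoderm and heart, had 1.47, 2.01 and 0.961 TPM and lay about the level of GATA2 and GATA3, and GATA1, the erythroid factor, had no read. TP73, a relative of TP63, had 44, 45 and 40 reads, or 2.45 TPM in the mean. CDX1 had no read, like CDX2, and CDX4 had 7, 7 and 12 reads. Of the receptor subunits listed with GABRP, GABRQ had 16.1 ± 1.38 TPM and GABRE 0.963 ± 0.228 TPM (SD, n = 3). Of the partners and relatives of CGA, the beta subunit genes FSHB and TSHB had no read and LHB had 6 in all. Of the 19 relatives reported, 8 reached 1 TPM and 6 had no read, with a median of 0.961 TPM.

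A wider list of trophoblast genes was examined, chosen as markers but with earlier results of these data known. Of 29 genes, 13 reached 1 TPM, 8 were in the upper 2 classes and 6 had no read, and the median was 0.605 TPM. KRT18, KRT8, KRT19 and SDC1 (80.1 TPM), a proteoglycan of epithelia and syncytiotrophoblast, were highest. No read was counted on CSH1 (placental lactogen), HSD3B1 (a steroidogenic enzyme), PSG1, KRT23, CGB5 or CGB8, and CGB3 had 1 read. The 3 listed genes for the beta subunit of chorionic gonadotropin (CGB3, CGB5 and CGB8) are near-identical, so that the counting could have split or dropped their reads. With CGA, the 4 genes listed here for subunits of the hormone thus had 2 reads in all. GCM1, the factor of syncytiotrophoblast, had 6, 2 and 1 reads.

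A list of amnion genes was counted in the same way. Of 12 genes, 6 reached 1 TPM, 3 were in the upper 2 classes and WNT6 had no read, and the median was 0.909 TPM. BAMBI, a decoy receptor of the TGF-β family, had 34.4 ± 4.42 TPM (SD, n = 3), followed by CLDN10 (14.3 TPM), BMP4 (5.09 TPM) and HEY1 (2.89 TPM), and MUC16 had 3 reads in all. BAMBI was thus below GABRP, and no gene of this list reached its level. BMP4, the ligand used to induce these fates, had 29, 48 and 45 reads, or 3.60, 5.12 and 6.55 TPM.

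**Figure D4:**
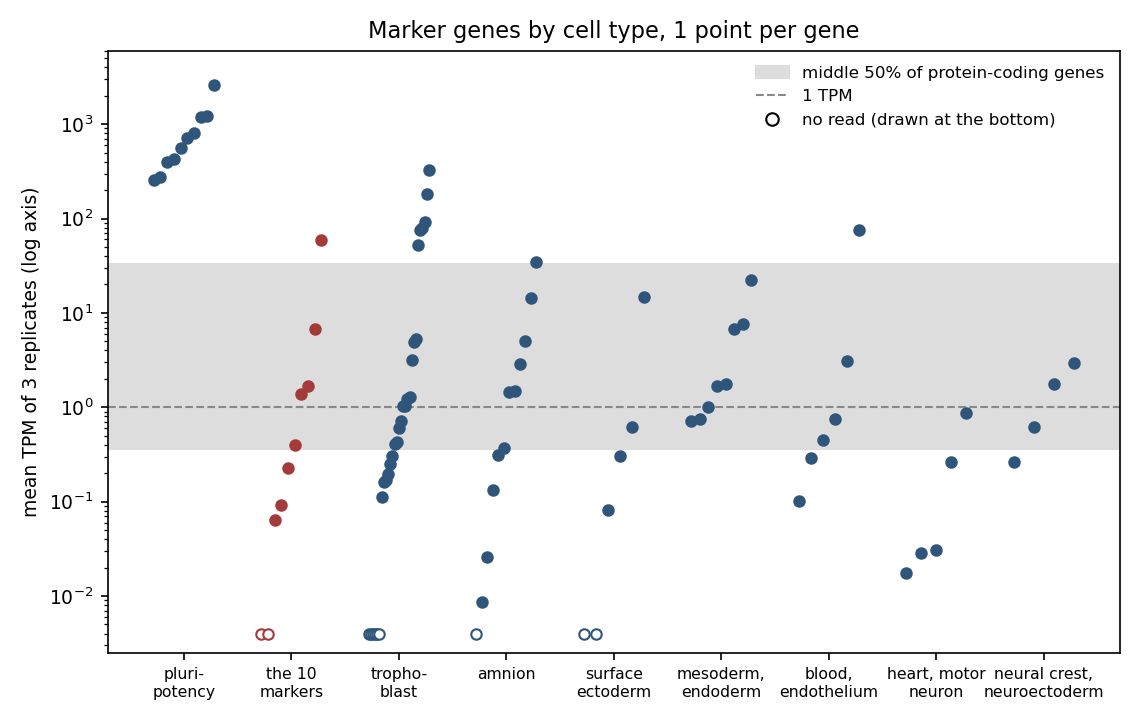
Mean TPM of the 3 replicates (log axis) for the 10 markers (red) and for lists of marker genes of other cell types (blue), with 1 point per gene, open points at the bottom for genes without a read, a dashed line at 1 TPM and a grey band for the middle 50% of protein-coding genes (0.361 to 33.0 TPM). All 10 pluripotency genes lie at 259 TPM or more, and GABRP is the 1 marker above the band.

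Most of the markers are also active in other tissues, and genes of those were counted for that reason. Of 6 genes of surface ectoderm, where TP63, TFAP2A and GATA3 act, SFN had 14.7 TPM and 5 were below 1 TPM. COL17A1 had 11, 18 and 6 reads, KRT15 had 4, 5 and 5, DSG3 had 1, 3 and 0, and KRT5 and KRT14 had none. Of 6 genes of blood and endothelium, where GATA2 acts, KDR had 76.5 TPM and TAL1 3.11 TPM. RUNX1, CD34, PECAM1 and CDH5 had 0.758, 0.445, 0.288 and 0.101 TPM. Of 5 genes of heart and motor neuron, where ISL1 acts, none reached 1 TPM, and the highest, NKX2-5, had 0.875 TPM. TNNT2 had 0.261 TPM, and MNX1, LHX3 and MYH6 had 1 read each in all. Of 4 genes of neural crest and neuroectoderm, SOX1 had 2.97 TPM and PAX6 1.74 TPM, and SOX10 and PAX3 had 0.624 and 0.266 TPM. The part of these cell types in the levels of the markers was not tested.

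The summed level of genes of mesoderm and endoderm was ordered otherwise across libraries than that of the markers. Of 8 such genes, 6 reached 1 TPM, led by MIXL1 (22.3 TPM), FOXA2 (7.54 TPM), EOMES (6.74 TPM) and TBXT (1.75 TPM). The lowest were MESP1 (0.758 TPM) and AFP (0.709 TPM). Their summed level was 52.3, 40.4 and 34.7 TPM in replicates 1, 2 and 3, while that of the 10 markers was 63.4, 66.2 and 77.5 TPM, and without GABRP 9.12, 10.6 and 11.8 TPM. GABRP and MIXL1 were the largest terms of these sums. Both were called for their spread over libraries, as were 10.9% of genes with at least 20 reads. Without GABRP the largest term was KRT7, at 5.67, 6.45 and 8.00 TPM, so that 2 genes weigh most in the order of the markers. Single genes differed: GATA2 was lowest in replicate 3, GATA3 was highest in replicate 2, and TBX6 was highest in replicate 3, at 0.371, 1.06 and 1.60 TPM. In the same order of replicates, the sums were 859, 826 and 808 TPM for trophoblast, 63.8, 58.0 and 59.7 TPM for amnion, 14.1, 15.5 and 17.6 TPM for surface ectoderm, 4.52, 5.70 and 6.59 TPM for neural crest and neuroectoderm, and 74.7, 82.0 and 91.2 TPM for the relatives. Replicate 3 was thus highest in some lists and lowest in others. The part of other cell types in these differences was not tested.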

How the data were processed

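RNA-seq counts of 3 H9 replicates were used. The authors trimmed reads (Trim Galore 0.4.4), aligned them to GRCh38 (TopHat2 2.1.1) and deposited whole-number counts of reads per Ensembl gene, without normalization. How reads were counted, and with which annotation and strand setting, is not given in the sources used here. Identifiers were joined to GENCODE release 44 on the same build, and 1103 of 58051 had no match and no TPM. TPM was computed from union exon lengths, so that values differ from those of Cufflinks (2.2.1) used by the study. A chi-square of the counts against shares of library totals was fitted for every gene with at least 20 reads, adjusted by Benjamini-Hochberg with a threshold of 0.05, and tested on simulated data. Alternatives used edgeR 4.0.16 (TMM) and DESeq2 1.42.0 factors, with R 4.3.3, Python 3.11.15, scipy 1.17.1 and blastn 2.17.0. Totals of 8655155 to 12024802 reads limit precision at low levels. Intervals and the limit of 3 reads cover counting error alone, as PCR duplicates can repeat a molecule. Members, lists, motifs and sequences shown were chosen with earlier results of these data known. All 10 members were named, with overlapping genes, and from each list the 4 highest and 2 lowest; other genes were named after their values were seen, and 1 relative is not reported here.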

Additional observations from a re-analysis of the deposited data

How the results depend on the processing

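The number of markers at or above 1 TPM was 4 with the longest transcript, CPM, either set of factors (TMM, DESeq2), no mitochondrial genes in the total, the median, or without any 1 replicate, and 6 with a threshold of 0.1 TPM. The number in the upper 2 classes was 2, except 4 with all genes classified, for which the cause was not tested, and 1 with nonexpressed genes below 1 TPM, which takes the lowest genes out of the classes. The 6 markers with over 3 reads in every replicate were 4 at 10 reads, and 6 without any 1 replicate. The 1 marker spread beyond counting error, GABRP, was kept under TMM or DESeq2 factors and without a filter on low counts, and the number was 0 to 1 with a replicate left out; the 0 was without replicate 3. Among the 10 markers, TMM or DESeq2 factors and mitochondrial genes moved no mean by more than its SD, the longest transcript moved 3 (2 higher and 1 lower), and CPM, another unit, moved 4, all higher. Means without 1 replicate, and medians, stay within an SD by construction. No paired analysis was possible because all samples belong to 1 group. Depth limits what can be said of ELF5, CGA, CDX2 and ISL1.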
